A study of Mus musculus with 9 samples.

Results

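Cyclins and cyclin-dependent kinases, the regulatory and catalytic subunits of the engine of cell division, were followed in mouse heart over postnatal life. The set holds 10 genes of the 19938 that were tested: the D-type cyclins Ccnd1, Ccnd2 and Ccnd3 with their kinases Cdk4 and Cdk6, the E-type cyclins Ccne1 and Ccne2, cyclin A2 (Ccna2), cyclin B2 (Ccnb2) and the kinase Cdk1. Members were listed by gene symbol, with earlier results of these data known. Each was read by 1 feature (a probe set, the group of short probes that reports a gene) on Affymetrix Mouse Gene 1.0 ST arrays, so no choice between probe sets was needed.

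The samples were total RNA of cardiac muscle from C57BL/6 mice, an inbred laboratory strain, aged 24 hours, 7 days and 10 weeks. Each age has 3 arrays, 9 in all, and the labels name no treatment or engineered allele. The labels do not say whether the replicates of an age were separate animals or pools, so the p-values measure the spread between these samples, which may be technical. Values are log2 signals as deposited, so a difference of 1 is a 2-fold change.

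Several cyclins are made and destroyed in step with the cell cycle, and such a cyclin switches on the kinase that it binds. D-type cyclins with Cdk4 or Cdk6 answer growth signals and phosphorylate the retinoblastoma protein, which releases E2F transcription factors. Cyclin E then drives entry into DNA synthesis, cyclin A2 acts through DNA synthesis and up to mitosis, and cyclin B with Cdk1 drives mitosis. In the mouse, heart muscle cells divide before birth and leave the cell cycle soon after it, with a last round of DNA synthesis that often leaves them with a pair of nuclei, while fibroblasts and endothelial cells of the heart can go on dividing.

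The array-wide facts that bear on these genes are few. Cardiomyocyte markers were bright at each age, with Tnnt2, which encodes cardiac troponin T, between 13.03 and 13.16 on the 9 arrays. The summed linear signal of 7 fat markers was 2425, 6182 and 3002 on the 7-day replicates 1, 2 and 3, against 1835 to 2130 on the 24-hour arrays and 2095 to 2371 on the 10-week arrays. On 7-day replicate 2 the summed signal of 5 liver and airway markers was 428 as well, against 93 and 78 on replicates 1 and 3. That sum was 156, 83 and 127 on 24-hour replicates 1, 2 and 3, and 81 to 83 on the 10-week arrays. Of these markers Scgb1a1 was at 5.83 on 24-hour replicate 1, against 2.58 and 2.49 on replicates 2 and 3. Because of the uneven 7-day sums, the members' calls that use those arrays are also given with replicate 1 alone at that age. The differences within arrays are not.

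Promoter windows were read for the members that had one, and Ccna2, which fell furthest by 10 weeks, had none. RefSeq (GRCm38.p6) gave a window for 6 of the 10 members: Ccnb2, Cdk1, Cdk4, Cdk6, Ccne1 and Ccnd3. Each was searched on both strands for TTTGAA (the cell cycle homology region), for CCAAT (the box bound by NF-Y) and for the E2F site in the forms TTCCCGC, also TTCGCGC, also TTGCCGC and also TTGGCGC. The searched windows run from 250 bases before to 50 bases after the start site, and the first 280 bases are printed. The windows of Ccnb2 (chr9:70421525-70421804, minus strand) and Cdk1 (chr10:69352883-69353162, minus strand) are shown because both genes were among the steepest to fall by 10 weeks. That of Cdk4 (chr10:127063285-127063564, plus strand) is shown as a window with no match. Of the members with windows that are not shown, Ccne1 and Ccnd3 changed less than Cdk4, and Cdk6 changed more. A link between these letters and the falls was not tested. Capitals mark the matches; ATTGG is CCAAT on the other strand.

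Ccnb2: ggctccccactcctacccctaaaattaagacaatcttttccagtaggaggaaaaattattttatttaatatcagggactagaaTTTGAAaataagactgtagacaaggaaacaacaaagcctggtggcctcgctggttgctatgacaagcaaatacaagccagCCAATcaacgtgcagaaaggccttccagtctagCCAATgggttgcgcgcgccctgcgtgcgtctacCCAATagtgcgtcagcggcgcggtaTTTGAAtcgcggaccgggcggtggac
Cdk1: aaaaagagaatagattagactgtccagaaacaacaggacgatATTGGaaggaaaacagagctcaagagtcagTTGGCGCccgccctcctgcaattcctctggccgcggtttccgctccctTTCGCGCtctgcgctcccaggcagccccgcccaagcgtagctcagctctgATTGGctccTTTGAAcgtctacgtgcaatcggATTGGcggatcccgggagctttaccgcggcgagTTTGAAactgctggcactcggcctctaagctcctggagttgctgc
Cdk4: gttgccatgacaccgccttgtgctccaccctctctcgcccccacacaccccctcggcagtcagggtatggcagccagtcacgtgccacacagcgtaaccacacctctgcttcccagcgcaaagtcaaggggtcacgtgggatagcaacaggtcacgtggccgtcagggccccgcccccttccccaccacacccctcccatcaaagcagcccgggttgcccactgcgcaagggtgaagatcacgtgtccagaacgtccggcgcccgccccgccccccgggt

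The Ccnb2 window held 2 matches to TTTGAA and 3 to CCAAT, with no E2F form. The Cdk1 window held 2 matches to TTTGAA, 3 to CCAAT and 2 to an E2F form. The windows of Cdk4, Cdk6 and Ccne1 held no match to these letters, and of the 2 windows of Ccnd3 1 held a single CCAAT. Over the 32544 different windows of this length, 17.8% held TTTGAA, 37.4% held CCAAT, 9.64% held an E2F form and 6.92% held both TTTGAA and CCAAT. A match describes the letters and not a bound site, and no match says only that these letters are not in this window.

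**Figure D1:**
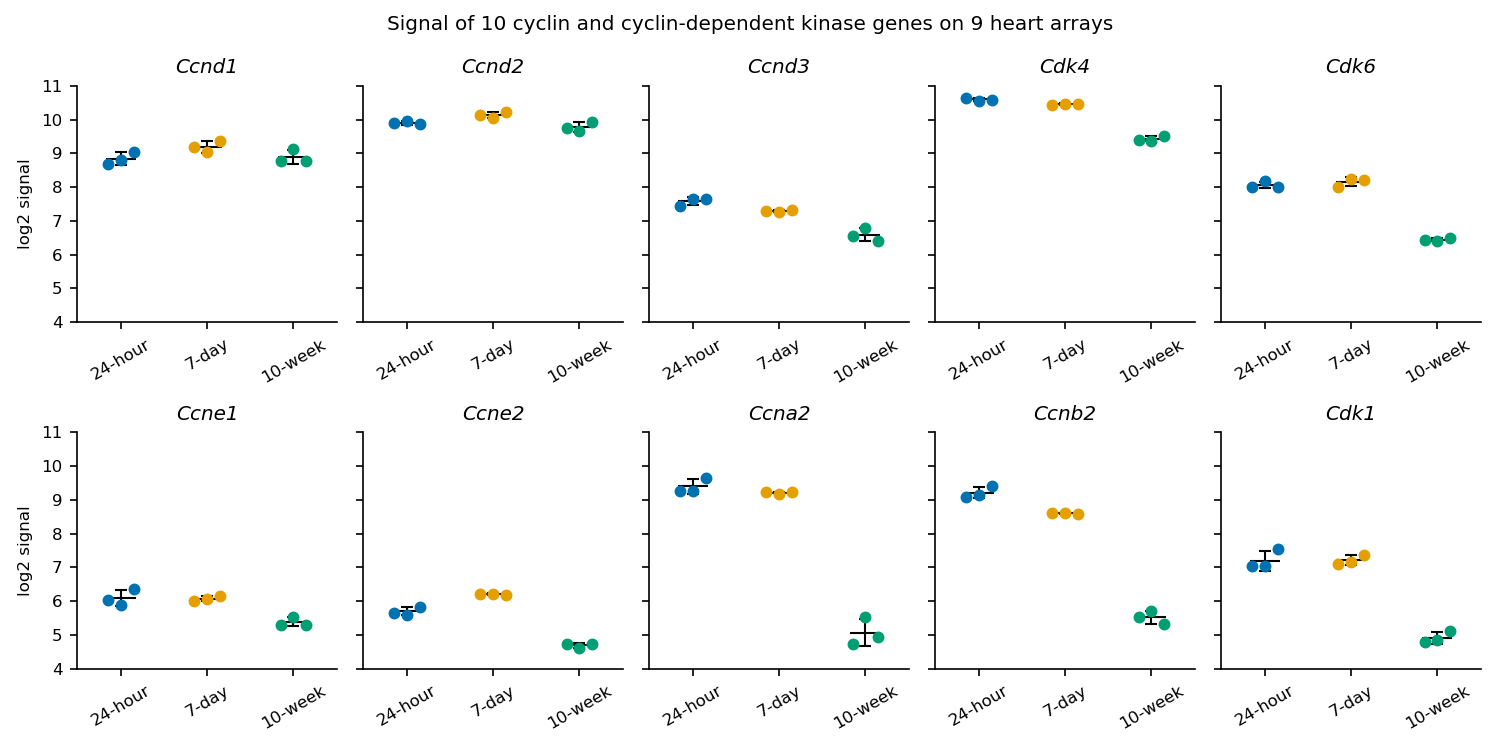
Log2 signal (y axis) of each member on each array (points) at 24 hours, 7 days and 10 weeks (x axis), with the mean and SD of the 3 arrays of an age in black. Ccna2, Ccnb2 and Cdk1 lie far lower at 10 weeks than at both younger ages, while the 10-week points of Ccnd1 overlap those of the 24-hour arrays.

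The comparison of 10-week with 7-day hearts asks what changed between the end of the first week and adulthood. Of the 10 members 9 fell and none rose (limma, Benjamini-Hochberg adjusted p under 0.05 over all 19938 genes). Lower calls made up 18.9% of all tested genes. The members were chosen with earlier results of these data known, so this count is a description. Of the members 6 were at least 2-fold lower and none as much higher, which held for 2.98% and 2.07% of all genes. At an unadjusted p under 0.05 all 10 members were lower, against 44.5% of all genes in either direction. The median difference of the members was -1.27, against 0.039 over all genes. At 10 weeks 9 of the 10 members lay below the range of the 7-day arrays, as did 21.5% of all genes, and none lay above it, as did 22.8%.

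Among the genes of late cycle phases, Ccna2 (probe set 10497831) measured 9.27, 9.28 and 9.66 at 24 hours, 9.23, 9.19 and 9.24 at 7 days, and 4.73, 5.52 and 4.95 at 10 weeks. The 10-week arrays lay far below the others and differed most among themselves, with an SD of 0.41. Ccna2 was 17.8-fold lower at 10 weeks than at 7 days (log2 difference -4.15 ± 0.17 SE, adjusted p = 7.37e-08). Counted from the largest fall, it ranked 7 among all genes.

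Ccnb2 (10594774), the B-type cyclin of mitosis, measured 9.10, 9.16 and 9.42 at 24 hours, 8.61, 8.60 and 8.59 at 7 days, and 5.53, 5.71 and 5.32 at 10 weeks. The 3 ages did not overlap, and the signal was lower at each later age. It was 8.46-fold lower at 10 weeks than at 7 days (log2 difference -3.08 ± 0.10 SE, adjusted p = 2.11e-08), rank 36 from the largest fall. Cdk1 (10369815), the kinase that both cyclins activate, measured 7.03, 7.03 and 7.55 at 24 hours, 7.09, 7.16 and 7.38 at 7 days, and 4.79, 4.85 and 5.12 at 10 weeks. The younger ages overlapped and the 10-week arrays stood below both. Cdk1 was 4.88-fold lower at 10 weeks than at 7 days (log2 difference -2.29 ± 0.15 SE, adjusted p = 9.55e-07).

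The E-type cyclins, which act at the start of DNA synthesis, changed less, from dimmer signals. At 7 days Ccne2 averaged 6.21 and Ccne1 6.07, not far above the median signal of all tested genes (5.57). A fall to a dim signal can be understated, so the sizes of these falls are not comparable with those of brighter members. Ccne2 (10503264) measured 5.66, 5.60 and 5.84 at 24 hours, 6.22, 6.21 and 6.19 at 7 days, and 4.73, 4.61 and 4.74 at 10 weeks. The 7-day arrays were the highest and the 10-week arrays the lowest, with no overlap between any of the ages. Ccne2 was 2.86-fold lower at 10 weeks than at 7 days (log2 difference -1.52 ± 0.07 SE, adjusted p = 1.5e-07). Ccne1 (10562563) measured 6.05, 5.90 and 6.37 at 24 hours, 6.01, 6.06 and 6.15 at 7 days, and 5.31, 5.54 and 5.31 at 10 weeks. The younger ages overlapped, and Ccne1 was 1.61-fold lower at 10 weeks than at 7 days (log2 difference -0.68 ± 0.12 SE, adjusted p = 8.56e-04).

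Both kinases of the D-type cyclins fell. Cdk6 (10519324) measured 8.02, 8.17 and 8.02 at 24 hours, 8.02, 8.25 and 8.22 at 7 days, and 6.43, 6.42 and 6.49 at 10 weeks. Its 10-week arrays lay close together, well below the younger ones, at a 3.29-fold lower mean than at 7 days (log2 difference -1.72 ± 0.07 SE, adjusted p = 8.39e-08). Cdk4 (10366814) measured 10.63, 10.57 and 10.59 at 24 hours, 10.43, 10.46 and 10.48 at 7 days, and 9.41, 9.38 and 9.52 at 10 weeks. It was 2.03-fold lower at 10 weeks than at 7 days (log2 difference -1.02 ± 0.05 SE, adjusted p = 1.41e-07), the most tightly measured difference of the set.

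Of the D-type cyclins, Ccnd3 (10445688) measured 7.44, 7.64 and 7.66 at 24 hours, 7.30, 7.26 and 7.33 at 7 days, and 6.55, 6.79 and 6.42 at 10 weeks. The ages did not overlap, and Ccnd3 was 1.63-fold lower at 10 weeks than at 7 days (log2 difference -0.71 ± 0.10 SE, adjusted p = 2e-04). Ccnd2 (10548105) measured 9.90, 9.95 and 9.86 at 24 hours, 10.15, 10.04 and 10.24 at 7 days, and 9.77, 9.67 and 9.94 at 10 weeks. The 7-day arrays were the highest, and the 10-week arrays overlapped the 24-hour ones. Ccnd2 was 1.28-fold lower at 10 weeks than at 7 days (log2 difference -0.35 ± 0.08 SE, adjusted p = 0.004). Ccnd1 (10569646) measured 8.69, 8.80 and 9.05 at 24 hours, 9.18, 9.03 and 9.36 at 7 days, and 8.77, 9.12 and 8.79 at 10 weeks. Its 10-week and 7-day arrays overlapped, and the difference of -0.29 ± 0.12 (SE) did not pass (adjusted p = 0.0913). Its 95% interval ran from -0.57 to -0.02, before any adjustment for the number of genes tested. Without 10-week replicate 2 the Ccnd1 difference was -0.41 and passed (adjusted p = 0.027).

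**Figure D2:**
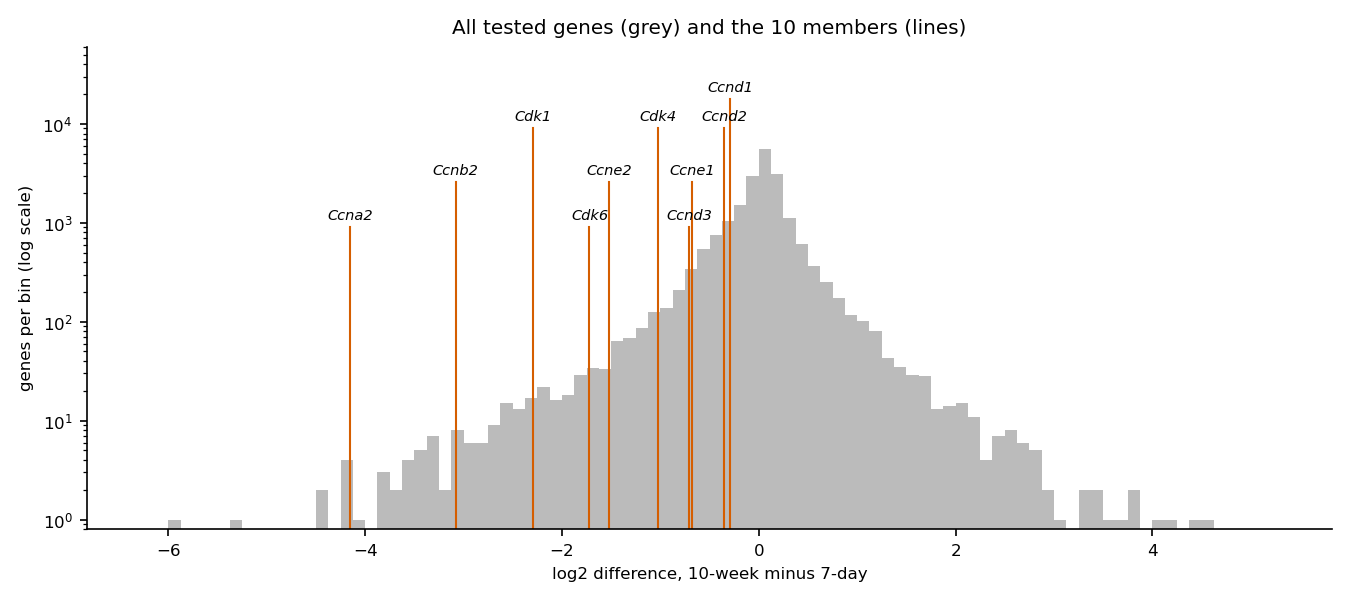
Number of tested genes per bin of log2 difference between 10-week and 7-day hearts (grey, log scale on the y axis), with the 10 members as vertical lines whose height has no meaning. Ccna2 at -4.15, Ccnb2 at -3.08 and Cdk1 at -2.29 lie in the far lower tail, and Ccnd1 at -0.29 and Ccnd2 at -0.35 near the bulk of the genes.

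With 7-day replicate 1 alone at that age 9 of 10 again passed, where the spread comes from the 24-hour and 10-week arrays and the lone array is assumed to vary like them. In bulk tissue a smaller number of cells of a type and less RNA per cell cannot be told apart. Markers of other cells also differed between these ages, where 17% of all genes were called higher and 18.9% lower. The summed linear signal of 10 fibroblast markers was 8314 to 9668 on the 10-week arrays and 16025 to 20057 on the 7-day arrays (0 higher, 7 lower), and that of 6 epicardium markers was 370 to 441 and 1067 to 1327 (0 higher, 6 lower). Erythroid markers summed to 128 to 257 at 10 weeks and 596 to 783 at 7 days (3 of 6 lower), endothelium markers to 4670 to 5241 and 5647 to 5930 (1 of 8 higher, 5 lower). Markers of smooth muscle and pericytes summed to 4610 to 5312 at 10 weeks and 6390 to 7932 at 7 days (1 of 7 higher, 3 lower). A sum is led by its brightest markers. Acta2, the brightest of these at 7 days, averaged 9.88 at 10 weeks and 11.79 at 7 days, while the list median difference was 0.07. Macrophage markers went the other way, at 3114 to 3373 and 1540 to 1623 (7 of 8 higher, 1 lower). Cardiomyocyte markers summed to 57519 to 58450 at 10 weeks and 55250 to 57090 at 7 days (1 of 11 higher, 0 lower). Among them Myh7 averaged 11.01 at 10 weeks and 9.16 at 7 days, while the list median difference was 0.01. The part of these cell types in the members' fall was not tested.

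The comparison of 10-week with 24-hour hearts asks how the adult differs from the newborn. Of the 10 members 8 fell and none rose, against 20.6% of all genes called lower (40.1% in either direction), and 6 were at least 2-fold lower, against 3.39% of all genes. The 8 were Ccna2, Ccnb2, Ccnd3, Ccne1, Ccne2, Cdk1, Cdk4 and Cdk6, and in each of them every 10-week array lay below every 24-hour array, as for 23.6% of all genes; no member lay wholly above, as 24.6% did. Ccna2 was 20.2-fold lower at 10 weeks (log2 difference -4.34 ± 0.17 SE, adjusted p = 2.77e-08) and Ccnb2 13.0-fold (-3.71 ± 0.10, adjusted p = 4.26e-09). Cdk1 was 4.85-fold lower, Cdk6 3.09-fold, Cdk4 2.24-fold, Ccne2 2.01-fold, Ccnd3 1.99-fold and Ccne1 1.64-fold lower.

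The remaining pair did not pass. Ccnd1 averaged 8.90 ± 0.20 at 10 weeks and 8.85 ± 0.19 at 24 hours (SD, n = 3 each), a difference of 0.05 with a 95% interval from -0.23 to 0.32 (limma, adjusted p = 0.788). It was -0.03 without 24-hour replicate 1 and -0.07 without 10-week replicate 2. Ccnd2 averaged 9.79 ± 0.14 and 9.90 ± 0.05, a difference of -0.11 with an interval from -0.28 to 0.06 (limma, adjusted p = 0.295). This comparison and the one with 7-day hearts share the 10-week arrays. For Ccna2, Ccne1, Ccne2 and Cdk1 the 10-week signals, from 4.61 to 5.54, lay below the median signal of all tested genes (5.57). The values carry no detection flags, so a fall to a dim signal can be understated. Fibroblast markers summed to 8314 to 9668 at 10 weeks and 10723 to 12287 at 24 hours (4 of 10 higher, 5 lower), epicardium markers to 370 to 441 and 937 to 1127 (0 of 6 higher, 6 lower), and macrophage markers to 3114 to 3373 and 983 to 1069 (7 of 8 higher, 0 lower). Cardiomyocyte markers summed to 57519 to 58450 at 10 weeks and 61292 to 62775 at 24 hours (2 of 11 higher, 6 lower). Among them Myh7 averaged 11.01 at 10 weeks and 12.26 at 24 hours, and the list median difference was -0.14. Markers of smooth muscle and pericytes summed to 4610 to 5312 and 7232 to 7685 (3 of 7 higher, 2 lower). Acta2 averaged 9.88 and 12.23, while the median difference of that list was 0.04. Endothelium markers summed to 4670 to 5241 at 10 weeks and 5242 to 5257 at 24 hours (2 of 8 higher, 4 lower), and erythroid markers to 128 to 257 and 347 to 534 (0 of 6 higher, 3 lower). Of all genes 19.5% were called higher and 20.6% lower between these ages. The part of these cell types in the fall of the members was not tested.

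**Figure D3:**
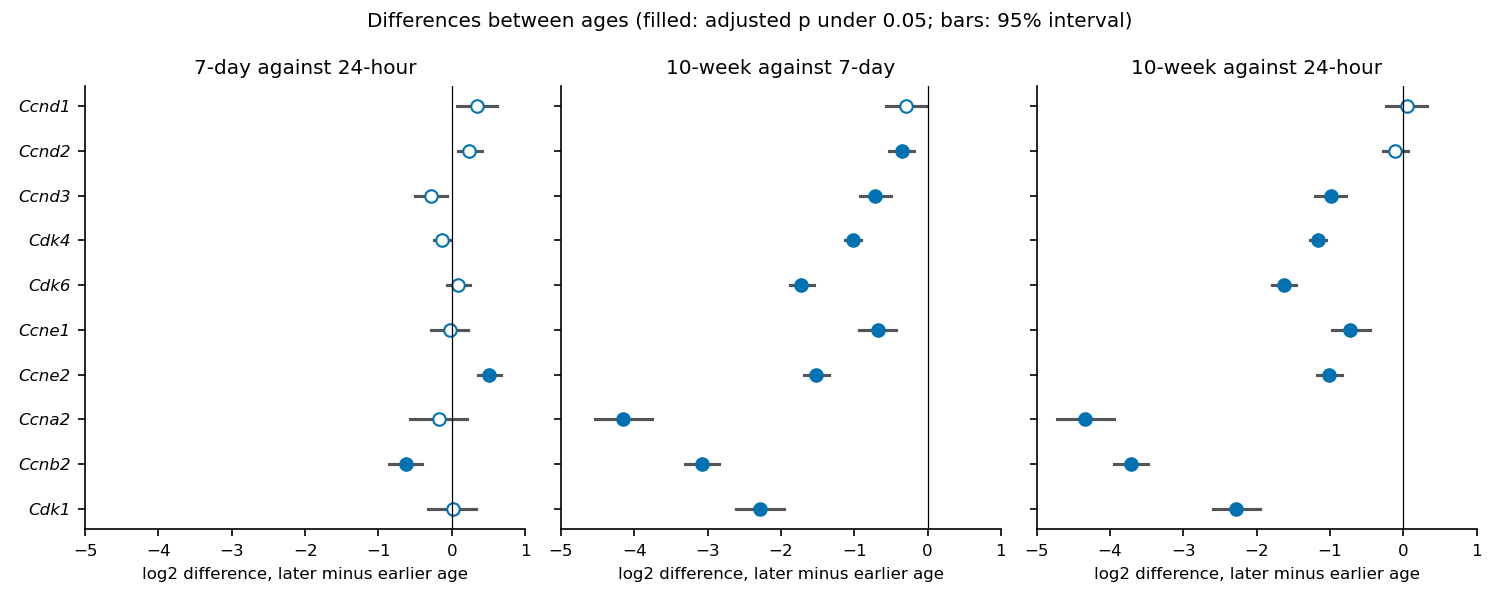
Log2 difference of each member (points) with its 95% interval (bars) in the 3 comparisons, later minus earlier age, on 1 scale; filled points passed an adjusted p under 0.05. In the first week 2 points are filled, against 9 between 7 days and 10 weeks and 8 between 24 hours and 10 weeks.

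The comparison of 7-day with 24-hour hearts covers the first week, with differences of the members between -0.63 and 0.51. In it 1 member rose and 1 fell, against 5.27% of all genes called higher and 4.81% called lower (10.1% in either direction). At an unadjusted p under 0.05 there were 6 members, against 21.2% of all genes. Ccne2 was 1.42-fold higher at 7 days, with 6.21 ± 0.02 at 7 days and 5.70 ± 0.12 at 24 hours (SD, n = 3 each; limma, log2 difference 0.51 ± 0.07 SE, adjusted p = 0.00165). Ccnb2 was 1.54-fold lower, with 8.60 ± 0.01 at 7 days and 9.22 ± 0.17 at 24 hours (limma, log2 difference -0.63 ± 0.10 SE, adjusted p = 0.00381). With 7-day replicate 1 alone these differences were 0.52 and -0.61 and did not pass (adjusted p = 0.0655 and 0.126), again with the spread taken from the other ages. Fibroblast markers summed to 16025 to 20057 at 7 days and 10723 to 12287 at 24 hours (5 of 10 higher, 0 lower), and macrophage markers to 1540 to 1623 and 983 to 1069 (7 of 8 higher, 0 lower). Cardiomyocyte markers summed to 55250 to 57090 at 7 days and 61292 to 62775 at 24 hours (0 of 11 higher, 3 lower). Among them Myh7 averaged 9.16 at 7 days and 12.26 at 24 hours, while the list median difference was -0.07. Endothelium markers summed to 5647 to 5930 and 5242 to 5257 (2 of 8 higher, 0 lower), and erythroid markers to 596 to 783 and 347 to 534 (0 of 6 called). Markers of smooth muscle and pericytes summed to 6390 to 7932 at 7 days and 7232 to 7685 at 24 hours (2 of 7 higher, 0 lower). Those of epicardium summed to 1067 to 1327 and 937 to 1127 (1 of 6 higher, 1 lower). The part of these cell types in the differences was not tested.

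The other 8 members did not pass. Ccna2 and Cdk1, which fell so far later, averaged 9.22 ± 0.02 and 7.21 ± 0.15 at 7 days, against 9.40 ± 0.22 and 7.20 ± 0.30 at 24 hours. Their differences were -0.18, with a 95% interval from -0.57 to 0.21, and 0.01, with an interval from -0.32 to 0.33. The groups did not overlap for 6 members: Ccnd2 and Ccne2 were higher on each 7-day array, as were 12.6% of all genes, and Ccna2, Ccnb2, Ccnd3 and Cdk4 lower, as were 14.5%. For Ccnd2 the difference was 0.24 ± 0.08 (SE, adjusted p = 0.0741), and it passed without 10-week replicate 3 (adjusted p = 0.0299). Cdk4 was at -0.14 ± 0.05 (adjusted p = 0.111), and it too passed without that array (0.0447). The difference of Ccnd3, -0.28 ± 0.10 (adjusted p = 0.103), passed without 10-week replicate 2 (0.0389). Ccnd1 differed by 0.34 ± 0.12 (adjusted p = 0.128), Cdk6 by 0.09 ± 0.07 (0.594) and Ccne1 by -0.03 ± 0.12 (0.938). The share of all genes called was 6.43%, 5.81% and 6.79% without 24-hour replicate 1, 2 or 3, and 5.76% without 7-day replicate 3.

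Set side by side, the steps of Ccne2 were 0.51 in the first week and -1.52 from 7 days to 10 weeks, and both passed. Those of Ccnb2 were -0.63 and -3.08, and both passed. The steps of Ccnd2 were 0.24, which did not pass, and -0.35, which did. Both steps share the 7-day arrays.

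Whether related members changed by different amounts was asked within each array, from the difference between their log2 signals. The probe sets of different genes are not on a common scale, so only the shift of this difference between ages has a meaning. An exact permutation test of the age labels over the 9 arrays, which can give no p below 0.00357, was run for 8 pairs and adjusted over them. The test asks whether the ages differ at all and not which step does. For 7 of the 8 pairs the difference shifted with age, with adjusted p between 0.00714 and 0.00816. Several pairs share a gene, so they are not separate results, and how often other gene pairs shift was not measured. The pairs, too, were chosen with earlier results of these data known.

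Among the D-type cyclins, Ccnd1 minus Ccnd3 was 1.27 ± 0.11, 1.89 ± 0.13 and 2.31 ± 0.08 at 24 hours, 7 days and 10 weeks (SD, n = 3; exact p = 0.00357), and Ccnd2 minus Ccnd3 was 2.32 ± 0.13, 2.85 ± 0.07 and 3.21 ± 0.32 (exact p = 0.00714). The arrays of the 3 ages did not overlap in the first of these pairs, and in the second those of 7 days and 10 weeks did. Ccnd1 minus Ccnd2 was -1.05 ± 0.22, -0.96 ± 0.07 and -0.90 ± 0.31, and its shifts of 0.10 and 0.06 were within the spread between arrays (exact p = 0.721). Between the kinases, Cdk4 minus Cdk6 was 2.52 ± 0.11, 2.29 ± 0.11 and 2.99 ± 0.03 (exact p = 0.00714), with the 10-week arrays above all others. The difference was 0.70 greater at 10 weeks than at 7 days, as Cdk6 fell further than Cdk4.

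For the E-type cyclins, Ccne1 minus Ccne2 was 0.40 ± 0.12 at 24 hours, -0.14 ± 0.09 at 7 days and 0.69 ± 0.20 at 10 weeks (SD, n = 3; exact p = 0.00357). The 7-day arrays were the lowest, and the ages did not overlap. Ccna2 minus Ccnb2 was 0.18 ± 0.06, 0.62 ± 0.03 and -0.45 ± 0.31 (exact p = 0.00357), again with no overlap between ages. Cdk1 minus Ccnb2 was -2.02 ± 0.14, -1.39 ± 0.16 and -0.60 ± 0.35 (exact p = 0.00357). Cdk1 minus Ccna2 was -2.20 ± 0.08, -2.01 ± 0.14 and -0.15 ± 0.46 (exact p = 0.00714). Both differences were greater at 10 weeks than at 7 days, by 1.87 for Ccna2 and by 0.79 for Ccnb2, as the cyclin signals fell further than that of Cdk1. At 10 weeks Ccna2, Ccnb2 and Cdk1 averaged 5.07, 5.52 and 4.92, below the median signal of all tested genes (5.57). A fall to a dim signal can be understated, so these shifts do not tell how unequal the falls in RNA were.

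**Figure D4:**
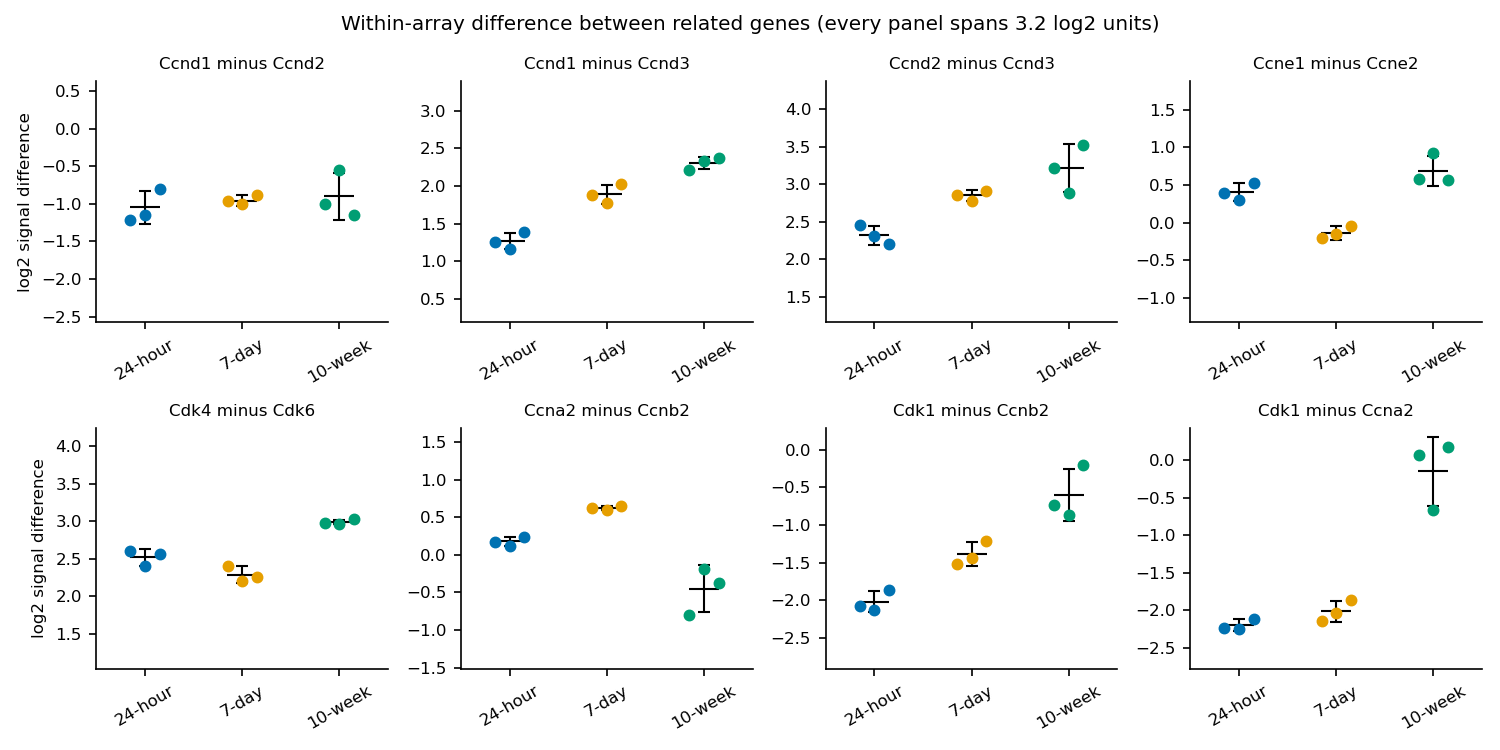
Difference between the log2 signals of 2 related genes within each array (points, y axis) at each age (x axis), with mean and SD in black; every panel spans the same height. Ccnd1 minus Ccnd2 is level over the ages, Ccnd1 minus Ccnd3 climbs, and Ccne1 minus Ccne2 dips at 7 days.

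The wider pathway, in lists also chosen with earlier results of these data known, showed where else the cell cycle genes moved. Of 19 genes of other cyclins, with the cyclin-binding protein gene Ccndbp1 counted among them, 3 rose and 10 fell between 7 days and 10 weeks, with a list median of -0.27. Ccnf, which marks proteins for destruction late in the cycle, fell by 1.06 on the log2 scale (adjusted p = 2.21e-04). Ccnjl fell too (-0.88), as did Ccnl1, a cyclin of RNA splicing (-0.61). Ccng1, a target of p53, rose by 0.63 with signals of 12.04, 11.99 and 12.16 at 10 weeks and 11.48, 11.38 and 11.44 at 7 days. Its fellow risers were the transcription cyclins Ccnk (0.43) and Ccnh (0.23), named after their values were seen. Higher calls made up 17% and lower calls 18.9% of all genes in this comparison. These shares also apply to the other lists between these ages.

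Of 16 other cyclin-dependent kinases 2 rose and 8 fell, with a median of -0.17. Cdk2, the partner of cyclins E and A, measured 6.08, 6.20 and 6.10 at 10 weeks and 8.39, 8.27 and 8.46 at 7 days, and fell by 2.25 on the log2 scale (adjusted p = 1.77e-08). Cdk14 (-0.95) and Cdk17 (-0.60) fell as well. Cdk18, a kinase of the PCTAIRE group, rose by 1.09 with 7.13, 7.12 and 7.07 at 10 weeks against 6.14, 5.85 and 6.04 at 7 days. The other riser was Cdk11b (0.21), named after its value was seen. Of 16 genes that activate, brake or destroy cyclin-CDK complexes 10 fell and none rose, with a median of -0.77. The CDK-binding subunits Cks2 (log2 difference -2.81) and Cks1b (-2.15) fell, as did Fbxo5, an inhibitor of the anaphase-promoting complex (-1.71), and Ube2c, the enzyme that supplies that complex with ubiquitin (-1.53).

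Most of the CDK inhibitors tested fell as well, while Cdkn1a had no feature with a single symbol and was not tested. Of 7 tested, 5 fell and 1 rose between 7 days and 10 weeks, with a median of -0.30. Cdkn3, a phosphatase that acts on CDKs, fell by 1.36 on the log2 scale. Cdkn2c (-0.81) and Cdkn2d (-0.75), which block Cdk4 and Cdk6, also fell. Cdkn2b, which blocks the same kinases, rose by 0.36 (adjusted p = 0.0136), with signals of 5.49, 5.21 and 5.59 at 10 weeks against 5.08, 5.06 and 5.06 at 7 days. Cdkn1c (-0.30) and Cdkn1b (-0.27) fell by less, and were named after their values were seen. Of 17 pocket proteins, E2F factors and their partners 3 rose and 11 fell, with a median of -0.42. Foxm1, an activator of mitotic genes, fell by 1.45, and so did E2f1 (-1.42), E2f8 (-1.37) and the pocket protein gene Rbl1 (-1.31). The risers were the repressor gene E2f6 (0.93), the E2F partner gene Tfdp2 (0.83) and the pocket protein gene Rbl2 (0.73), named after their values were seen.

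In the first week 14 of the 75 genes of these lists passed (18.7%), against 10.1% of all genes. Cdkn1c (log2 difference -0.64) and Cdkn1b (-0.34), inhibitors of CDKs, fell, while the other 5 inhibitors tested did not pass. Cdc25c, the phosphatase that activates Cdk1, fell by 0.72, and Wee1, the kinase that restrains it, fell by 0.44. Cdc25c measured 5.06 on each 7-day array, and such ties can make an SD too small. Fbxw7, which directs cyclin E to destruction, rose by 0.62, with 7.90, 7.68 and 7.73 at 7 days against 7.18, 7.08 and 7.19 at 24 hours (adjusted p = 3.06e-04), and Cdk2ap1 rose by 0.25. E2f1 and Tfdp1, which form an activating complex, rose by 0.43 and 0.29, while Rbl2 (-0.49) and Tfdp2 (-0.40) fell. Among the other cyclins Ccng1 rose by 0.25 while Ccng2 (-0.36, tied at 6.5 on each 7-day array) and Ccnjl (-0.30) fell. Of the other kinases Cdk13, a transcription kinase, fell by 0.34.

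These first-week counts depended on single arrays. The 2 lower cyclins became 0 without 24-hour replicate 1, 2 or 3 or 7-day replicate 1 or 3, and 1 without 7-day replicate 2 or 10-week replicate 1. The 1 lower kinase became 0 without 24-hour replicate 1 or 2 or 7-day replicate 1 or 3, and 2 without 7-day replicate 2. The 2 higher activators and brakes became 1 without 24-hour replicate 1 or 2, any 1 of the 7-day arrays or 10-week replicate 1. The 2 higher pocket and E2F genes became 1 without 24-hour replicate 1 or 2 or 7-day replicate 2 or 3.

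Between 24 hours and 10 weeks, 3 other cyclins were higher and 9 lower, with 3 and 9 among the other kinases and 1 and 11 among activators and brakes. Cdk2 (log2 difference -2.31), Cks2 (-2.97), Cdc25c (-2.19) and Cdkn1c (-0.94) were among the genes that fell. Of the 7 inhibitors 5 were lower and 2 higher. The 2 higher ones, Cdkn2a (0.30) and Cdkn2b (0.27), which were named after their values were seen, became 0 without 24-hour replicate 2 or 3 or 10-week replicate 1, and 1 without any 1 of the 7-day arrays or 10-week replicate 2 or 3. Of the pocket and E2F genes 4 were higher and 10 lower, and the 4 became 2 without 24-hour replicate 3 or 10-week replicate 1 or 3. Higher calls made up 19.5% and lower calls 20.6% of all genes here.

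**Figure D5:**
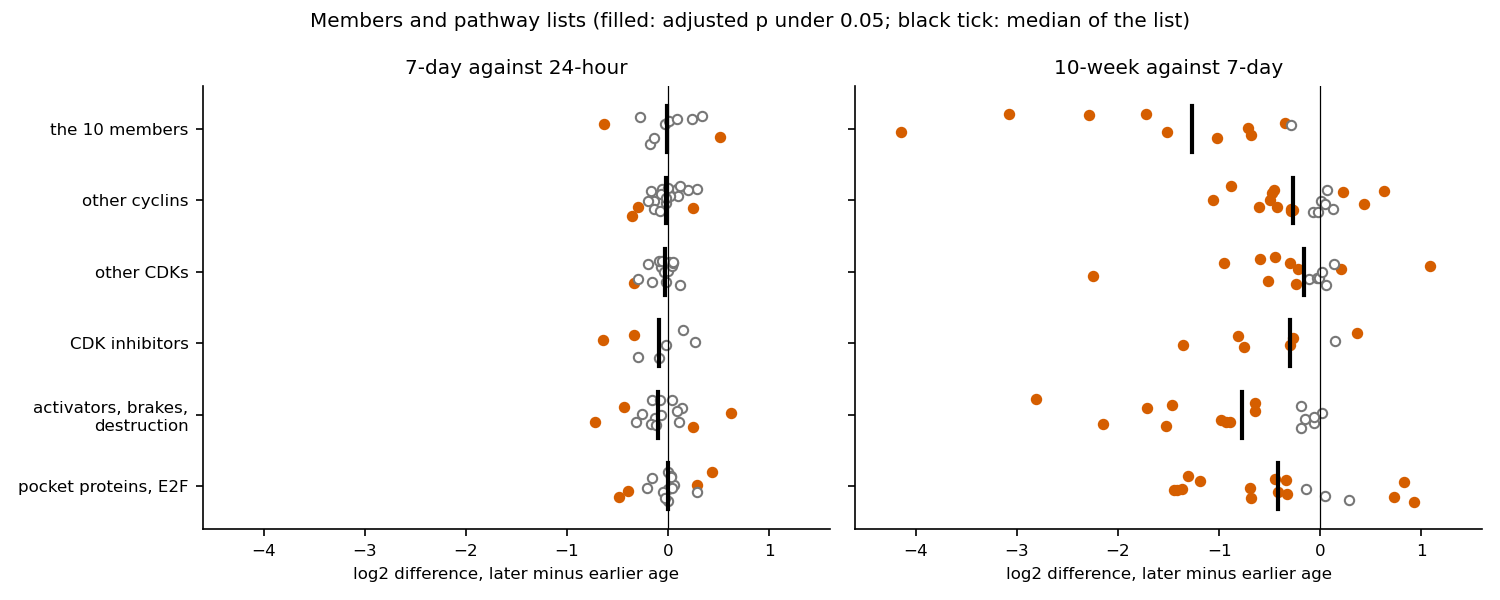
Log2 difference (x axis, later minus earlier age) of each gene (points; vertical jitter has no meaning) in the set of 10 and in 5 lists of other cell cycle regulators (rows), for the steps up to and after 7 days; filled points passed an adjusted p under 0.05 and the black tick is the median. From 7 days to 10 weeks the medians are -1.27 for the 10 members, -0.27, -0.17, -0.30, -0.77 and -0.42 for the lists from top to bottom.

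Other genes followed the members closely over the 9 arrays. Likeness was measured as the root mean square distance between log2 profiles, each centred on its own mean, and is a description with no test. Arrays of an age share that age, so large falls alone give a high Pearson r. The nearest profile to Ccna2 was that of Prc1, a protein of the spindle midzone (distance 0.22, r = 0.998), followed by Hmmr (0.27) and the proliferation marker gene Mki67 (0.33). Nearest to Ccnb2 were Kif20a, a mitotic kinesin (0.08, r = 0.999), the cytokinesis gene Anln (0.19) and the checkpoint kinase gene Bub1 (0.20). Kif20a measured 8.11 ± 0.24, 7.50 ± 0.06 and 4.39 ± 0.18 at 24 hours, 7 days and 10 weeks (SD, n = 3). Nearest to Cdk1 were the histone chaperone gene Asf1b (0.09, r = 0.997), Cks1b (0.11) and the kinetochore gene Spc25 (0.12).

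The profile of Ccne2, highest at 7 days, had as its nearest Prrg3 (distance 0.08, r = 0.993), the primase subunit gene Prim2 (0.08) and E2f1 (0.11). Prim2 measured 6.45 ± 0.01, 6.87 ± 0.09 and 5.39 ± 0.10 at the 3 ages (SD, n = 3). Nearest to Ccne1 were Slc25a37, Mtfr2 and Vangl1, at 0.07 to 0.08. Those nearest to Cdk4 were Nono (0.04, r = 0.997), Azin1 (0.04) and the centrosome gene Cep192 (0.05), and those nearest to Cdk6 were Myh10, which encodes a non-muscle myosin heavy chain (0.09, r = 0.994), AW551984 (0.10) and Smtnl2 (0.10). For Ccnd1 they were the transcription factor gene Jund (0.09, r = 0.914), Pbdc1 (0.10) and Ndufa11 (0.11). For Ccnd2 they were Fuca2, Zfp84 and Vamp3, at 0.05 each, and for Ccnd3 Pcgf2 (0.08), R3hcc1 (0.09) and Slc25a5 (0.09).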

How the data were processed

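Log2 signals were used as deposited by the authors, 1 value per feature and array; MAS5 5.0 is named per the submitters' processing notes, and the normalization between arrays is not given in the sources used here. MAS5 was made for arrays with mismatch probes, which this design lacks, so how the probes were summarised is not known. Base 2 was inferred from the highest value, 13.583, which exceeds 11.09, the natural log of the top 16-bit scanner value. The array medians lie within 0.0485 of each other, and 2.61% to 7.18% of features have identical values on a given pair of arrays, which can make an SD too small. Of 35556 features 21789 had 1 platform gene symbol, updated by Entrez id to RefSeq for 21698; the feature with the highest mean stood for a gene. An array has no read depth, and the number of arrays limits the precision.

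Ages came from the sample titles. All 9 arrays entered 1 linear model with a mean for each age, in limma 3.58.1 (R 4.3.3; eBayes with an intensity trend), and p-values were adjusted by Benjamini and Hochberg over 19938 genes. Intervals are 95% from the moderated standard error (10.1 degrees of freedom). Pairs, profiles and promoters were handled in Python 3.11.15. The members, lists and pairs were chosen with earlier results of these data known. Named from each list were up to 4 genes per comparison with the largest difference among those called, and per member the 3 nearest profiles. The fit was tested on simulated data. Alternatives covered scaling, variance prior, arrays used, dim genes, probe sets, array weights and a replicate block. Titles share replicate numbers across ages, but deviations of same-numbered arrays from their age means correlated at -0.174 to 0.133, so the numbers were not taken as pairs. Ccnb1 and Cdkn1a had no feature with a single symbol and were not analysed here.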

Additional observations from a re-analysis of the deposited data

How the results depend on the processing

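Over the 19 alternatives run for each member, every member called in the comparisons with 10-week hearts kept its direction and its call, with 9 to 10 members lower against 7 days and 8 against 24 hours, and the 8 within-array pairs kept their side of the threshold in the 11 alternatives run for each. The first week was less stable. Leaving out 1 array gave 593 to 1160 genes higher and 547 to 1156 lower at 7 days, and 1 to 2 members in each direction. With 7-day replicate 1 alone these were 265, 251, 0 and 0; with array weights 1681, 1686, 3 and 3. With only the 6 arrays compared 2 members were higher and 3 lower, and 2 were higher among genes above the median signal. Differences that did not pass and turned sign were those of Ccne1 (-0.14 to 0.10 when 1 array was left out, 0.04 with array weights), Cdk1 (-0.02 with arrays centred on their medians, -0.08 to 0.18 when 1 array was left out, and -0.11 with 7-day replicate 1 alone), Cdk6 (-0.05 with 7-day replicate 1 alone) and, between 24 hours and 10 weeks, Ccnd1 (-0.07 to 0.15 when 1 array was left out). Centred arrays gave 888 higher and 1247 lower genes in the first week (1050 and 959 as deposited), and 5247 and 3307 between 7 days and 10 weeks (3388 and 3777); with 7-day replicate 1 alone that last comparison gave 1865 and 2291.

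List counts in the first week, leaving out 1 array, were 0 to 2 for lower cyclins, 0 to 2 for lower kinases, and 1 to 2 for higher activators and for higher E2F genes. With 7-day replicate 1 alone they were 0 higher and 0 lower cyclins, 0 lower kinases, 1 lower inhibitor, 1 higher and 0 lower activators, and 0 and 0 E2F genes. With array weights 4 cyclins and 4 kinases were lower and 1 inhibitor higher. Centred arrays gave 1 higher activator and 2 lower kinases, the 6 arrays alone 1 higher activator, bright genes 3 lower kinases, and the mean of probe sets 1 higher E2F gene. Between 7 days and 10 weeks, 7-day replicate 1 alone gave 6 lower cyclins, 1 higher and 5 lower kinases, 0 higher and 3 lower inhibitors and 7 lower E2F genes, and bright genes 0 higher inhibitors. Between 24 hours and 10 weeks higher inhibitors ran from 0 to 2 and higher E2F genes from 2 to 4 without 1 array; the inhibitors were 0 with the 6 arrays, with bright genes and with 7-day replicate 1 alone, activators 2 with quantile normalization and E2F genes 2 with array weights. The cause was not tested, beyond the smaller number of arrays or genes. With the replicate block the members' calls were the same, 9 lower against 7 days and 8 against 24 hours, and the first week gave 915 higher and 819 lower genes.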

Other observations

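Within an age, the arrays that were highest differed between members. At 24 hours replicate 3 had the highest signal in 7 of the 10 members, and replicate 1 the lowest in 6. At 7 days replicate 3 was the highest in 7. At 10 weeks replicates 2 and 3 were the highest in 5 members each, and replicate 2 was also the lowest in 4. Replicate 2 was the highest for Ccna2 (5.52, against 4.73 and 4.95) and Ccnb2 (5.71, against 5.53 and 5.32), while Cdk1 was highest on replicate 3 (5.12). The erythroid gene Alas2, which encodes an enzyme of haem synthesis, was at 7.12 on replicate 2, against 4.56 and 4.25 on replicates 1 and 3. The other erythroid markers did not move together. On 10-week replicate 2 Slc4a1 was the highest (5.85) and Epb42 (3.51) and Hemgn (4.03) were the lowest of that age. Rhag was equal on all 10-week arrays, and Klf1 on replicate 2 equalled replicate 1. The median SD of the 10 members was 0.15, 0.05 and 0.16 at 24 hours, 7 days and 10 weeks, against 0.07, 0.07 and 0.10 over all genes. These are values for single arrays, and no difference between them was tested.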
